A study of Mus musculus with 4 samples.

Results

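Heat shock and small chaperone genes were followed across 4 mouse arrays: Hspa1a, Hspa1b, Hspa8, Hsph1, Dnajb1, Hspb1, Hspb8 and Cryab. They were read through every probe set that the array annotation gives to one of these 8 genes alone, which is 20 of 45037 non-control probe sets, and the annotated array holds 18193 genes in all. The genes were chosen with their values on these arrays known, so every value of theirs is a description and no value here was tested. Of the 20 probe sets, 19 lay at or above the detection floor on at least 1 array. The exception was Cryab probe set 1435837_at, which lay below the floor on all 4 arrays.

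Chaperones bind unfolded proteins and keep them from clumping. The Hsp70 chaperones use ATP to hold and release their clients, J-domain proteins such as Dnajb1 bring clients to them and start the ATP cycle, and Hsph1 restarts the cycle by exchanging the nucleotide. Small heat shock proteins, to which Hspb1, Hspb8 and Cryab belong, share a crystallin domain and hold unfolding proteins without ATP. When proteins unfold, the transcription factor Hsf1 switches on Hspa1a, Hspa1b and others by binding repeats of GAA and TTC in their promoters. Cryab is also abundant without stress in lens, heart, skeletal muscle and glia.

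The groups were Snai1 knockout (KO) teratomas, control teratomas with the genotype F/F, Snai1 KO embryoid bodies and F/F embryoid bodies, with 1 array each. Teratomas, which are tumours of mixed tissue, grew for 6 weeks from embryonic stem cells injected subcutaneously into male nude mice aged 6 weeks, which carry a mutation that removes most T cells but leaves B cells and myeloid cells. Embryoid bodies, which are stem cell aggregates, differentiated without directing factors and were taken on day 5. How the knockout was made, how many stem cell clones were used and whether RNA of several tumours was pooled were not given in the sources used here, and there are no replicates, so no difference below can be set against a spread between samples. In bulk RNA, fewer cells of a type and less RNA per cell cannot be told apart.

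Values are log2 expression per probe set. The floor, the median of an array's non-control probe sets, was 5.04 and 5.08 on the KO and F/F teratoma arrays and 4.73 and 4.71 on the KO and F/F embryoid body arrays. Snai1 itself, read by 1 probe set, had 3.44 in the KO and 3.59 in the F/F teratoma, and 3.45 in KO against 4.78 in F/F embryoid bodies, so only the last value lay above its floor. Neuron markers were at or above the floor for 10 of 10 genes in both teratomas and for 4 of 10 in both embryoid body samples, while pluripotent and epiblast markers were there for 7 and 6 of 8 genes in KO and F/F teratomas and for 8 of 8 in both embryoid body samples. The excess of 3' over 5' signal for Gapdh, a measure of RNA integrity and labelling, was 0.40 and 0.65 log2 units in KO and F/F teratomas and 0.10 and 0.17 in KO and F/F embryoid bodies. For Actb this excess was larger, 0.85 and 1.03 in KO and F/F teratomas and 0.31 and 0.38 in KO and F/F embryoid bodies.

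Promoters are shown for the genes that carry the heat shock letters. Whether the letters bear on any difference between the samples was not tested. The sequences come from RefSeq (mouse GRCm38.p6) and run from 250 bases before the transcript start to 50 bases after it, 5′ to 3′ on the gene's own strand. Capitals mark every match to GAANNTTC or TTCNNGAA, letters that read the same on both strands.
Hspa1a, chr17:34972107-34972406, minus strand: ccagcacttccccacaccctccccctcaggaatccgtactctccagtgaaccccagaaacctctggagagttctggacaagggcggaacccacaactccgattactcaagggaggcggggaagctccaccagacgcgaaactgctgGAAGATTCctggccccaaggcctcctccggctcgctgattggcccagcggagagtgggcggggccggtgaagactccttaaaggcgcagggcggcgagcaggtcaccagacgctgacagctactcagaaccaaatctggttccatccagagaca
Hspa1b, chr17:34959189-34959488, minus strand: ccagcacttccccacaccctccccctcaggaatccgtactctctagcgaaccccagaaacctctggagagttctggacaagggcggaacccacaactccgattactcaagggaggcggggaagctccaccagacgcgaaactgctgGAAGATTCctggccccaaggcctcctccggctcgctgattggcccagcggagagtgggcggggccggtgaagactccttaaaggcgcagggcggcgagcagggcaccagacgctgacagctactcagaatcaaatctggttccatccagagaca
Hsph1, chr5:149636287-149636586, minus strand: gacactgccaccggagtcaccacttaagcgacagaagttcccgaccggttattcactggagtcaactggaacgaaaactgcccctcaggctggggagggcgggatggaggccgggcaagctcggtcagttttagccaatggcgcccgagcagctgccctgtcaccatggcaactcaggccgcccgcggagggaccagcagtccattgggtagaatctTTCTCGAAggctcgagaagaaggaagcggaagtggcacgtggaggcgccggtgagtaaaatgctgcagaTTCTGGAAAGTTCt
Hspb1, chr5:135887669-135887968, plus strand: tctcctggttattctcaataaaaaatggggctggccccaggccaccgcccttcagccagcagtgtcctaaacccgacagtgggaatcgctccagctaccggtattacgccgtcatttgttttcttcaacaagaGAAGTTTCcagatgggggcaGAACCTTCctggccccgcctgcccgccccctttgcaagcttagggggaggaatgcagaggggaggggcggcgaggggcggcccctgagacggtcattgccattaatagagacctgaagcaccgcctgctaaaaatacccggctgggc
Hspb8, chr5:116422815-116423114, minus strand: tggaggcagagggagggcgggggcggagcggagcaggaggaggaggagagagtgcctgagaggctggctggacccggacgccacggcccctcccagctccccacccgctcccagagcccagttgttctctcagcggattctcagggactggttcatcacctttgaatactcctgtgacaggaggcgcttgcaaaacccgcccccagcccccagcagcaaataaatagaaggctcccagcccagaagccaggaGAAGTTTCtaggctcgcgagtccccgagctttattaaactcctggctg
At least 1 of these letter patterns occurred in 6 of the 8 member windows in the table, against 15.1% of all 32851 windows there. The 6 windows belong to 5 of 6 genes, since Hsph1 and Dnajb1 have 2 overlapping or nearby windows each. The promoters of Hspa1a and Hspa1b, neighbouring genes on chromosome 17, differed at 4 of 300 positions and had the match GAAGATTC at the same place, starting at position -104 relative to the transcript start. Hspb1 had 2 matches, starting at -117 and -97, and the match of Hspb8 began at position 3. Of the 6 genes, Hsph1 alone had 3 repeats in a row, TTCTGGAAAGTTC, in which a match to each shorter pattern overlaps the other. Such a run of 3, on either strand, occurred in 0.603% of all promoter windows. Neither window of Dnajb1 held any of the letters, which says nothing about windows elsewhere. The array's reading of Hspa1a and Hspa1b is uncertain as to which copy gave the signal, because the genes are near-identical.

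Set against F/F, the KO teratoma had higher values for all 8 genes by the probe set with the highest mean, and 4 of them were at least 2-fold higher: Hspa1a, Hspa1b, Hspb1 and Cryab. The same fold was reached upwards by 3.25% and downwards by 1.07% of the 12197 genes at or above the floor in at least 1 of the teratomas. The 8 members had a median difference of 0.86 log2 units, between 0.12 and 1.53, beside a median of 0.06 over all measured genes, 57.6% of which lay above 0. In embryoid bodies the same 8 genes split, with 3 higher and 5 lower in KO, a median of -0.12 and a range of -1.98 to 0.13, beside a median of 0.03 over 12282 measured genes. Cryab was the only member past 2-fold there, and it was lower. The background there was 3.98% of genes lower and 2.18% higher by this fold. Counted by probe sets, 9 of the 19 measured ones were at least 2-fold higher in the KO teratoma (background 3.06%) and 0 lower (background 1.04%). In KO embryoid bodies 2 were lower (background 3.38%) and 0 higher (background 2.1%). Because Hspa1a and Hspa1b are near-identical, they may repeat a shared signal in the counts of genes and of probe sets.

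**Figure D1:**
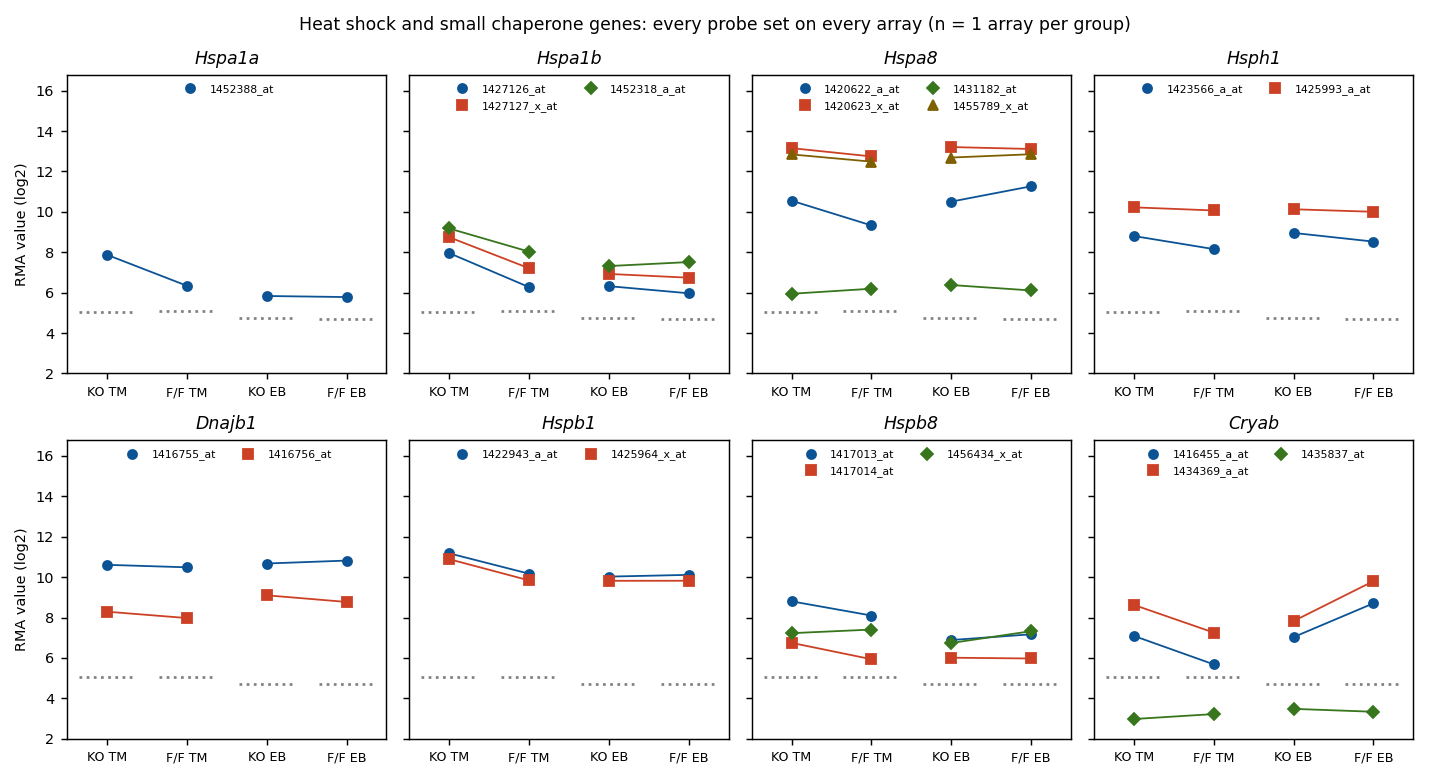
RMA values (log2, vertical axis) of all 20 probe sets of the 8 genes on the KO teratoma, F/F teratoma, KO embryoid body and F/F embryoid body arrays (TM, teratoma; EB, embryoid body; 1 array per group). Lines join the arrays of the same tissue, dotted bars mark each array's floor, and the lines of the 2 Cryab probe sets above the floor tilt in opposite directions in teratomas and embryoid bodies.

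Inducible Hsp70, which is barely made in unstressed cells and rises steeply after heat, comes from Hspa1a and Hspa1b. Hspa1a had 7.88 in the KO and 6.35 in the F/F teratoma, and 5.84 in KO and 5.78 in F/F embryoid bodies. The KO teratoma stood apart as the highest of the 4 arrays, 2.89-fold above the F/F teratoma, while the embryoid body samples differed by 0.05. By the size of its teratoma difference Hspa1a ranked number 97 of 12197 measured genes, and Hspa1b number 268. Probe set 1452318_a_at of Hspa1b had 9.18 in the KO and 8.03 in the F/F teratoma, and 7.32 in KO and 7.51 in F/F embryoid bodies. Probe set 1427126_at had 7.96 in the KO and 6.27 in the F/F teratoma, and 6.32 in KO and 5.97 in F/F embryoid bodies. All 3 probe sets of Hspa1b gave the KO teratoma the highest value, by 1.15 to 1.68 log2 units over the F/F teratoma. In embryoid bodies their KO minus F/F differences lay between -0.20 and 0.35, with no common sign.

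Hspa8 makes the constitutive Hsp70 of the cytosol, present in all cells. Its probe sets did not give the same answer. Probe set 1420623_x_at had 13.16 in the KO and 12.75 in the F/F teratoma, and 13.21 in KO and 13.11 in F/F embryoid bodies, a range of 0.46 over the 4 arrays, and KO minus F/F by 1455789_x_at was 0.36 in teratomas and -0.16 in embryoid bodies. Probe set 1420622_a_at had 10.56 in the KO and 9.33 in the F/F teratoma, and 10.51 in KO and 11.27 in F/F embryoid bodies. The F/F teratoma was thus 2.34-fold below the KO teratoma by that probe set and 1.33-fold below it by 1420623_x_at. The probe set 1431182_at had 5.95 in the KO and 6.20 in the F/F teratoma, and 6.38 in KO and 6.11 in F/F embryoid bodies. It went the other way, at -0.25 for KO minus F/F in teratomas and 0.27 in embryoid bodies.

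Hsph1, the Hsp110 exchange factor, and Dnajb1, a heat-inducible J-domain partner of Hsp70, had no probe set past 2-fold between KO and F/F in either tissue. Hsph1 probe set 1425993_a_at had 10.23 in the KO and 10.07 in the F/F teratoma, and 10.13 in KO and 10.005 in F/F embryoid bodies. Its other probe set, 1423566_a_at, had 8.81 in the KO and 8.16 in the F/F teratoma, and 8.96 in KO and 8.53 in F/F embryoid bodies. It gave 0.65 for KO minus F/F in teratomas and 0.43 in embryoid bodies, so the KO sample was the higher in both tissues by both probe sets. Dnajb1 probe set 1416755_at had 10.61 in the KO and 10.49 in the F/F teratoma, and 10.68 in KO and 10.82 in F/F embryoid bodies. By 1416756_at, Dnajb1 had 8.29 in the KO and 7.98 in the F/F teratoma, and 9.10 in KO and 8.77 in F/F embryoid bodies. The KO minus F/F differences of its probe sets were 0.12 and 0.31 in teratomas, and -0.15 and 0.33 in embryoid bodies. Probe sets of the same gene had a pooled SD of 0.28 for this difference in teratomas and 0.29 in embryoid bodies over all genes with several, a spread that leaves out variation between tumours or cultures.

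Hspb1, the small heat shock protein that also guards actin filaments, had 11.18 in the KO and 10.17 in the F/F teratoma, and 10.03 in KO and 10.12 in F/F embryoid bodies by probe set 1422943_a_at. The KO teratoma was the only array that stood apart, and the other 3 lay close together. The other probe set, 1425964_x_at, had 10.89 in the KO and 9.84 in the F/F teratoma, and 9.82 in KO and 9.82 in F/F embryoid bodies. The probe sets were alike in size, at 1.01 and 1.05 for KO minus F/F in teratomas and -0.09 and -0.0033 in embryoid bodies. The teratoma difference lay just past 2-fold, at 2.01-fold, and was 0.90 after quantile normalization of the 4 arrays.

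Hspb8 works with the co-chaperone Bag3 to send damaged proteins to autophagy, above all in muscle. Probe set 1417013_at had 8.81 in the KO and 8.10 in the F/F teratoma, and 6.89 in KO and 7.17 in F/F embryoid bodies, so by this probe set both teratomas lay above both embryoid body samples. Its KO minus F/F difference in teratomas was 0.70, that of 1417014_at was 0.81 and that of 1456434_x_at -0.18. In embryoid bodies the differences were -0.28, 0.04 and -0.58. Probe set 1417014_at had 6.75 in the KO and 5.94 in the F/F teratoma, and 6.01 in KO and 5.97 in F/F embryoid bodies, with the KO teratoma alone standing apart. The probe set that went the other way in teratomas, 1456434_x_at, had 7.23 in the KO and 7.41 in the F/F teratoma, and 6.74 in KO and 7.33 in F/F embryoid bodies. Bag3 had 8.23 in the KO and 7.99 in the F/F teratoma, and 9.38 in KO and 9.18 in F/F embryoid bodies, with both teratomas below both embryoid body samples.

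Cryab, alpha B-crystallin, had the widest range of the members, 2.54 log2 units, and it differed between KO and F/F in opposite directions. Probe set 1434369_a_at had 8.63 in the KO and 7.26 in the F/F teratoma, and 7.82 in KO and 9.80 in F/F embryoid bodies. The F/F embryoid bodies were the highest array and the F/F teratoma the lowest, with the KO samples between them. KO was 2.58-fold higher in the teratoma and 3.93-fold lower in embryoid bodies. With the mean of the 3 probe sets, which takes in the one below the floor, the differences were 0.85 in teratomas, under 2-fold, and -1.17 in embryoid bodies. Probe set 1416455_a_at had 7.09 in the KO and 5.68 in the F/F teratoma, and 7.03 in KO and 8.70 in F/F embryoid bodies, which gives differences of 1.41 and -1.67. The KO minus F/F difference in teratomas exceeded that in embryoid bodies by 3.35 and 3.08 log2 units by these probe sets, against 1.98 for Hspa8 1420622_a_at, 1.33 to 1.48 for Hspa1a and Hspa1b and 1.05 to 1.10 for Hspb1. Hspa8 1420622_a_at also had opposite signs, at 1.23 in teratomas and -0.76 in embryoid bodies. Cryab ranked number 144 from the top of the teratoma difference and number 126 from the bottom of the embryoid body difference.

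**Figure D2:**
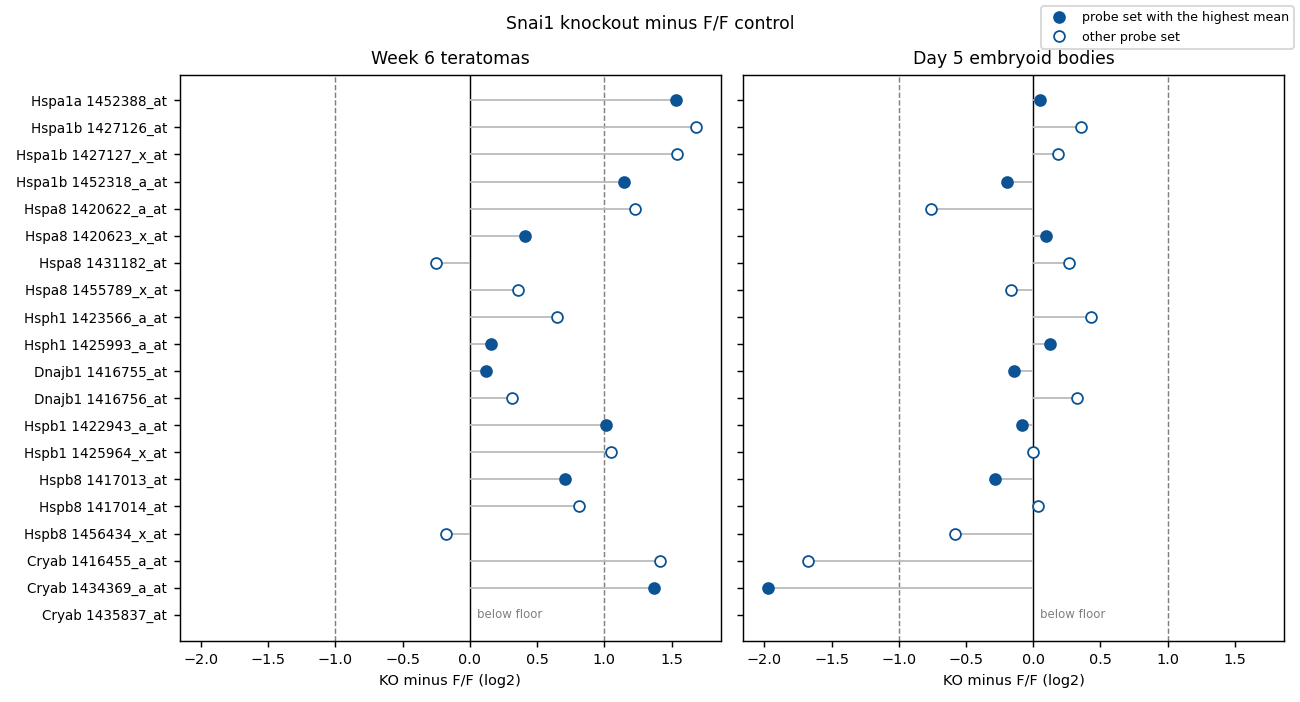
KO minus F/F difference (log2, horizontal axis) of each probe set in teratomas, left, and embryoid bodies, right; dashed lines mark 2-fold. In teratomas 17 of 19 measured probe sets lie above 0 and 9 past 2-fold, while in embryoid bodies 9 lie above 0 and only those of Cryab, at -1.98 and -1.67, pass 2-fold.

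The tissues were compared within each genotype, teratoma against embryoid body. These comparisons reuse the arrays above, so their values are not independent of them. In KO samples 4 of the 8 members were at least 2-fold higher in the teratoma (background 19.8%) and 0 at least 2-fold lower (background 19.8%). Hspa1a was 4.11-fold higher, Hspb8 3.78-fold, Hspa1b 3.63-fold and Hspb1 2.22-fold. After the arrays were centred on their medians Hspb1 was at 0.84 and 3 members passed 2-fold. The other 4 members lay under 2-fold, with Cryab at 0.80, Hsph1 at 0.10, Hspa8 at -0.05 and Dnajb1 at -0.06. By 1416455_a_at Cryab was at 0.06. Hspa8 changed sign after quantile normalization and Hsph1 after centring the arrays on their medians. The median of the members was 0.98, beside -0.15 over 12936 measured genes. In F/F samples 0 members were at least 2-fold higher in the teratoma (background 16.2%) and 1, Cryab, was lower (background 19%), by 5.82-fold. Hspa1a and Hspa1b differed there by 0.56 and 0.52, Hspb1 by 0.06 and Hspb8 by 0.93, whereas Hspa8 and Dnajb1 differed by -0.37 and -0.33. The Hspb8 difference was -0.04 by 1417014_at and 0.08 by 1456434_x_at. The median of the members was 0.06, beside -0.18 over 12956 measured genes. The Hspb1 difference changed sign when arrays were centred on their medians, as did that of Hsph1, at 0.07, and Hspb8 passed 2-fold, at 1.06, after quantile normalization. By probe sets, 7 were at least 2-fold higher in KO (background 18.8%) and 0 lower (background 19.3%), and in F/F samples 0 were higher (background 16.2%) and 3 lower (background 18.2%), namely the Cryab pair and Hspa8 1420622_a_at.

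**Figure D3:**
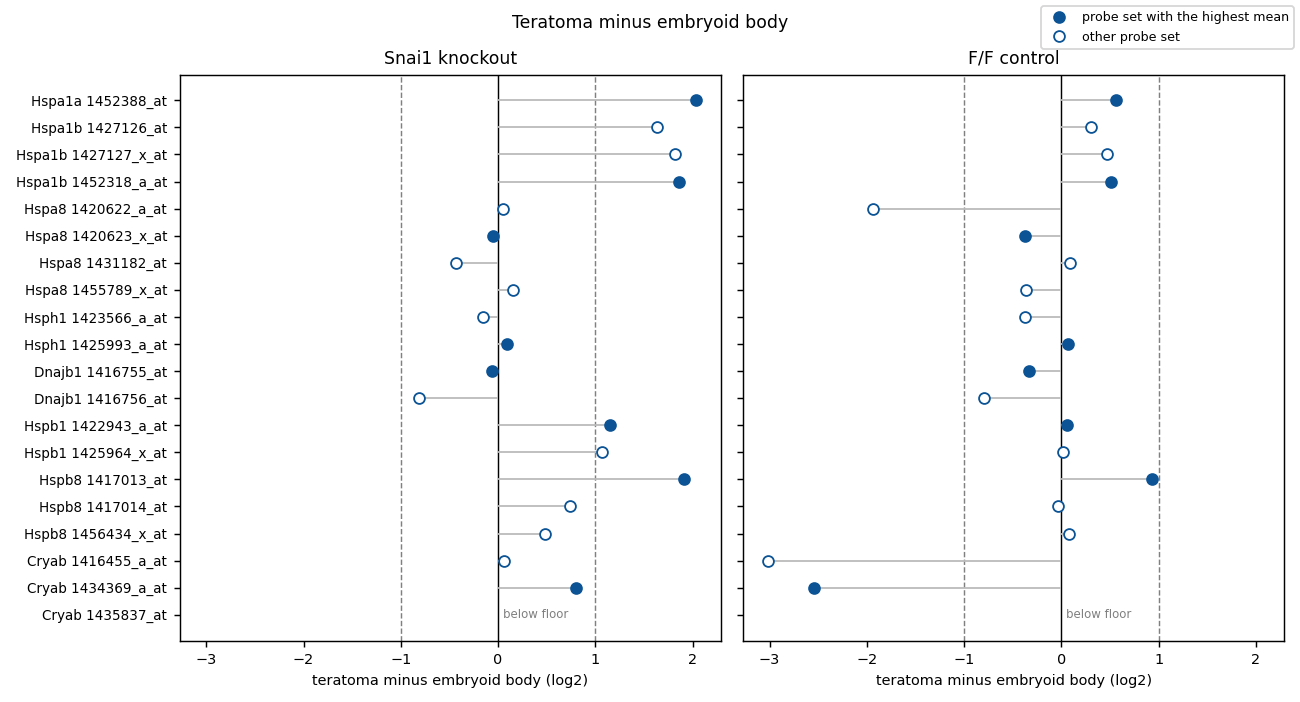
Teratoma minus embryoid body difference (log2, horizontal axis) of each probe set in KO samples, left, and F/F samples, right; dashed lines mark 2-fold. Hspa1a and Hspa1b lie between 1.64 and 2.04 in KO and between 0.30 and 0.56 in F/F, and the Cryab probe sets lie at -2.54 and -3.02 in F/F.

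Other chaperone classes had few genes past 2-fold between KO and F/F. Over all measured genes the shares were 3.25% higher and 1.07% lower in teratomas. They were 2.18% higher and 3.98% lower in embryoid bodies. Counts of 0 in lists of this size lie near those shares. In teratomas, 0 of 6 measured genes of other cytosolic Hsp70 and Hsp110 chaperones, 0 of 10 Hsp90 genes and co-chaperones, 0 of 10 other J-domain genes, 0 of 10 exchange factor and BAG genes, 0 of 8 chaperonin genes, 0 of 8 mitochondrial chaperone genes and 0 of 18 endoplasmic reticulum genes were 2-fold higher or lower. Their medians were 0.30, 0.03, 0.02, 0.23, 0.09, 0.26 and 0.22. The mitochondrial list had all 8 genes above 0, with the protease-chaperone gene Clpx at 0.64 and Lonp1 at 0.53. Among Hsp90 partners, the glucocorticoid-responsive gene Fkbp5 differed by 0.81 and Stip1, which links Hsp70 to Hsp90, by 0.35, whereas Ahsa2 differed by -0.52. The ER stress factor gene Ddit3 had 8.80 in the KO and 7.83 in the F/F teratoma, and the collagen chaperone gene Serpinh1 10.10 in the KO and 10.70 in the F/F teratoma. Of the heat shock factor list, Hsf1 had no probe set annotated to it alone, and Hsf4 and Hsf5 lay below the floor on all 4 arrays. Hsf2 lay below the floor on every array but the F/F teratoma, where it had 5.18 beside a floor of 5.08. Hsbp1, which binds Hsf1 and holds it back, differed by 0.33. Hsp90ab1, Ptges3 and Ppid of the Hsp90 list also had no probe set of their own.

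Of the 7 other small heat shock proteins, 4 were measured, and 1 was at least 2-fold higher in the KO teratoma. Hspb6, a muscle relaxation protein, had 7.66 in the KO and 6.20 in the F/F teratoma, 2.74-fold higher in KO, and 4.19 in KO against 4.88 in F/F embryoid bodies, the KO value lying below the floor. Hspb7, a heart and muscle protein, had 6.01 in the KO teratoma and lay just below the floor in the F/F teratoma, at least 1.90-fold higher, while in embryoid bodies it had 4.92 in KO and 5.89 in F/F. Hspb2, the gene next to Cryab on chromosome 9, had 6.04 in KO and 6.79 in F/F embryoid bodies and did not share the teratoma pattern, with 4.91 in the KO, below the floor, and 5.24 in the F/F teratoma. The list had a median of 0.37 in teratomas and -0.53 in embryoid bodies, where 4 of 4 measured genes lay below 0 and 0 were 2-fold lower.

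In embryoid bodies, Hsp90 genes and co-chaperones had a median of 0.26 with all 10 above 0, led by Fkbp5 at 0.70, Stip1 at 0.61 and Fkbp4 at 0.57. The chaperone genes of these lists past 2-fold were Hspa12b, a distant Hsp70 relative of endothelium, which was at least 2.83-fold lower in KO, where it lay below the floor, and Dnajb4, a J-domain gene, at 6.42 in KO and 7.64 in F/F embryoid bodies. Medians were 0.15 for other Hsp70 and Hsp110 genes, 0.09 for J-domain genes, 0.10 for exchange factor and BAG genes, 0.14 for the chaperonin, 0.09 for mitochondrial chaperones and -0.06 for endoplasmic reticulum genes, in which Serpinh1 differed by -0.96.

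**Figure D4:**
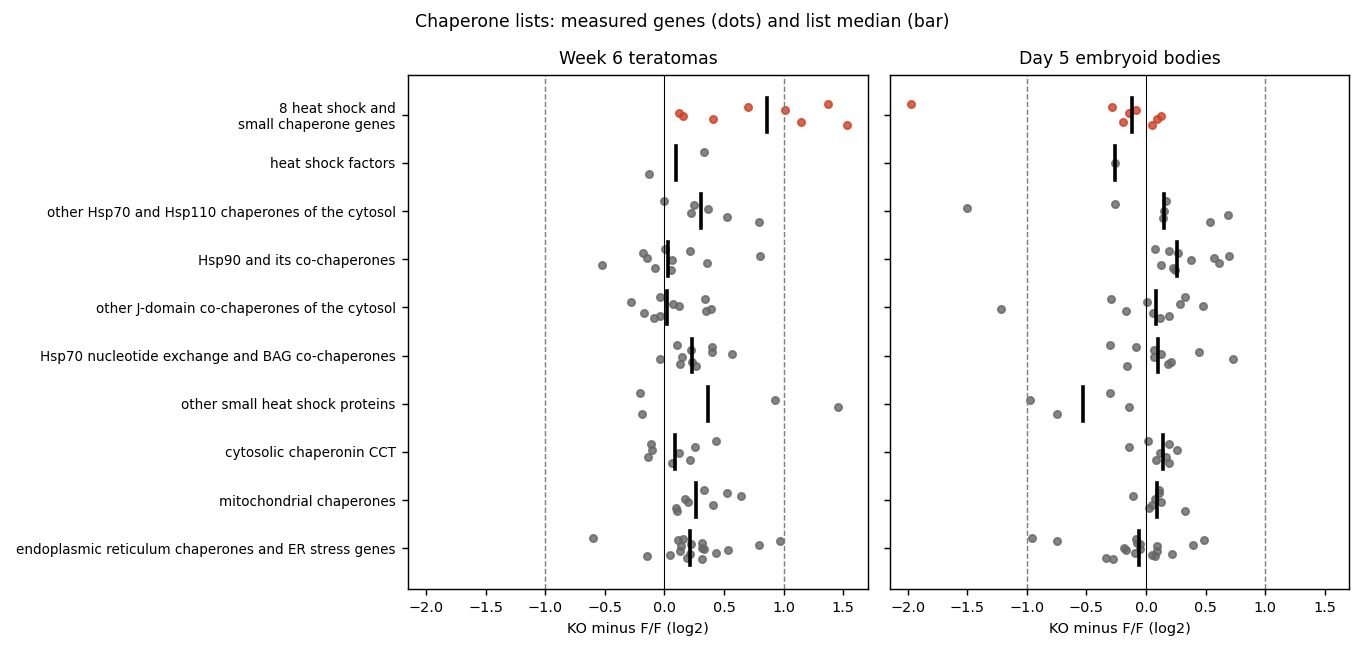
KO minus F/F difference (log2, horizontal axis) of the measured genes of each chaperone class (dots) and the class median (bar) in teratomas, left, and embryoid bodies, right; dashed lines mark 2-fold. The 8 heat shock and small chaperone genes have a median of 0.86 in teratomas and -0.12 in embryoid bodies, and the small heat shock protein Hspb6, at 1.46, is the other chaperone gene past 2-fold in teratomas.

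Between the tissues the classes parted. The medians of teratoma minus embryoid body in KO and in F/F samples were -1.25 and -0.73 for Hsp90 and its co-chaperones. They were -0.75 and -0.96 for mitochondrial chaperones, -0.60 and -0.49 for the chaperonin and -0.62 and -0.87 for exchange factors and BAG genes. The medians of these lists thus lay lower in the teratomas. Hsp90aa1, the only Hsp90 gene measured in the Hsp90 list, differed by -0.07 in KO and 0.12 in F/F samples. The J-domain list lay higher, with 0.51 in KO and 0.57 in F/F samples. The cochaperone gene Bag2 was 4.21-fold lower in KO and 4.04-fold lower in F/F teratomas, and the myosin chaperone gene Unc45b 4.50-fold and 4.26-fold lower. Centring the arrays on their medians moved the median of all genes by -0.31 in KO and -0.37 in F/F samples for this comparison.

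Stress and cell type genes were read beside the chaperones. Of all measured genes, 57.6% lay above 0 for KO minus F/F in teratomas and 53.3% in embryoid bodies. By 2-fold, 3.25% were higher and 1.07% lower in teratomas, and 2.18% higher and 3.98% lower in embryoid bodies. These shares are the background for the stress and cell type counts that follow. In the KO teratoma 2 of 12 measured hypoxia genes were 2-fold higher and all 12 lay above 0, with Car9 at 1.38 and Adm at 1.26. Of 11 measured immediate early genes, 10 lay above 0 and 2, Ier3 at 1.09 and Fos at 1.03, were 2-fold higher. Oxidative stress genes had 0 of 7 past 2-fold, 5 of 7 above 0 and a median of 0.33, with Srxn1 at 0.96 and Hmox1 at 0.84. Ubiquitin and proteasome genes had 0 of 9 past 2-fold and 8 of 9 above 0, with the autophagy receptor gene Sqstm1 at 0.91. In embryoid bodies all 12 measured immediate early genes lay above 0 in KO, 3 of them past 2-fold (Junb, Ier2 and Egr2). The Hspa1a difference there was 0.05. Hypoxia genes had a median of 0.24 there and ubiquitin and proteasome genes one of 0.13, with 0 past 2-fold in each. Oxidative stress genes had a median of -0.49, and the quinone reductase gene Nqo1 was at least 4.11-fold lower in KO. The part of these genes in the chaperone differences was not tested.

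Markers of several cell types also differed between the samples, among them muscle and glia, in which Cryab is abundant without stress. Whether these cell types bear on the Cryab or Hspb8 values was not tested. In teratomas, KO minus F/F medians were 0.87 for astrocyte and oligodendrocyte markers, with 4 of 10 measured genes 2-fold higher (Mobp 2.18, Gfap 1.44), and 1.13 for neurons, with 7 of 10 higher. Leukocyte markers had 6 of 8 measured genes higher, a median of 2.003, and 8 of 10 markers above the floor in the KO against 5 of 10 in the F/F teratoma. Heart muscle markers went the other way, with 5 of 8 at least 2-fold lower in KO and a summed level of 8.78 in the KO and 10.67 in the F/F teratoma (log2). Smooth muscle markers had 3 of 7 lower, and skeletal muscle markers split, with Myh2 at least 12.1-fold higher in KO but Myh3 4.25-fold and Myog 2.59-fold lower. Squamous epithelium markers had 0 of 8 past 2-fold. Pluripotent and epiblast markers had 4 of 7 higher in the KO teratoma, and early mesoderm and visceral endoderm markers had 1 of 5 higher and 3 of 5 lower. Lens markers were near absent, with 1 of 12 above the floor in the KO and 0 of 12 in the F/F teratoma.

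In embryoid bodies, Cryab was lower in KO together with heart muscle markers, of which 5 of 8 measured were at least 2-fold lower (Myl2 -2.74, Actc1 -2.34) and 0 higher, with a summed level of 11.34 in KO and 12.74 in F/F samples (log2). Smooth muscle markers had 3 of 5 lower, Acta2 among them at 10.37 in KO and 12.71 in F/F embryoid bodies. Skeletal muscle, glial and neuron markers had 0 genes past 2-fold, and lens markers had 2 of 12 above the floor in both samples. Leukocyte markers had 1 of 3 measured genes lower in KO, and pluripotent and epiblast markers 2 of 8 higher. Early mesoderm and visceral endoderm markers had 4 of 10 higher and 4 of 10 lower. The part of these cell types in the Cryab values was not tested.

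**Figure D5:**
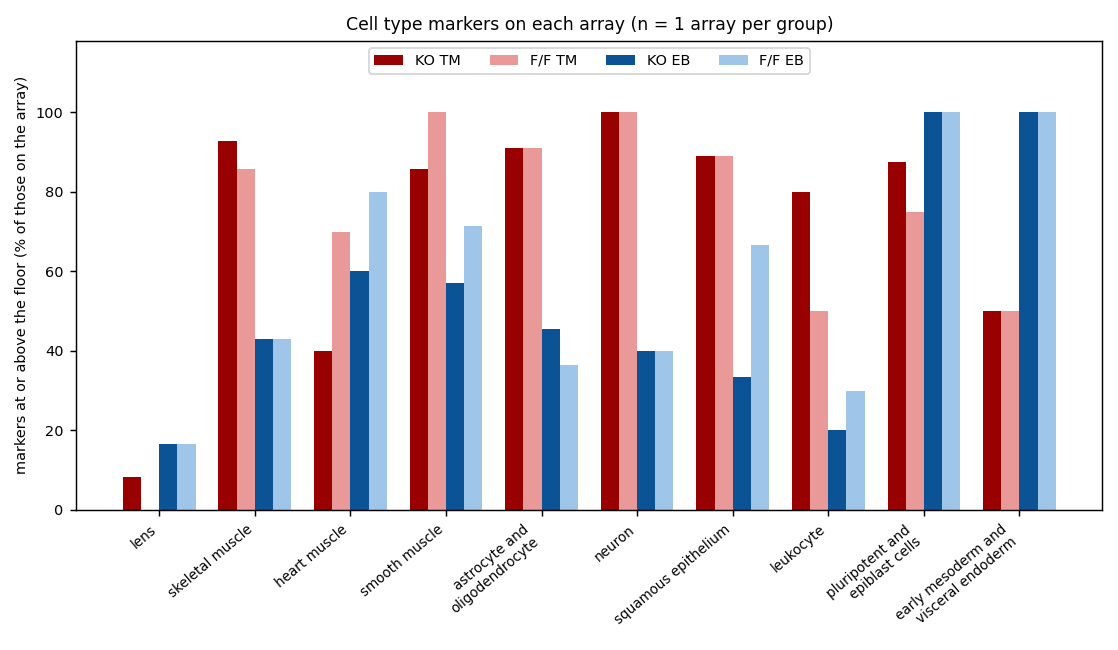
Share of each cell type's markers at or above the floor (percent of those on the array, vertical axis) on the KO teratoma, F/F teratoma, KO embryoid body and F/F embryoid body arrays (1 array each). Lens markers stay at or below 16.7%, heart muscle markers are at 40% in the KO and 70% in the F/F teratoma and at 60% in KO and 80% in F/F embryoid bodies.

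Among 10178 other genes above the floor on all 4 arrays, those whose pattern over the 4 arrays came closest to that of Cryab, after each gene was centred on its own mean, were the efflux pump gene Abcc4, Ctla2b, the ceramidase gene Acer2, the endothelial gene Ecscr and the tetraspanin gene Tspan4. Their root mean square differences from Cryab were 0.30, 0.32, 0.34, 0.35 and 0.38 log2 units. Abcc4 had 8.04 in the KO and 7.06 in the F/F teratoma, and 7.28 in KO and 8.75 in F/F embryoid bodies. All 5 were highest in F/F embryoid bodies, as Cryab was, which follows largely from their being picked for likeness to it. Likeness over 4 arrays is a description of these samples.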

How the data were processed

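RNA of 4 samples, 1 array per group, was read on Affymetrix mouse arrays. Columns were used for the RNA of embryoid bodies and Trizol for that of teratomas, per the labels' protocols, so tissue and extraction cannot be told apart, and 250 ng of total RNA was labelled. The authors deposited log2 values per probe set, made with affy and RMA per the submitters' processing notes, a method that as usually run corrects background and normalizes by quantiles. Tool versions, and whether 1 run covered all 4 arrays, were not given in the sources used here. Of 45037 non-control probe sets, 34945 name 1 gene in the platform annotation, and 34741 of these matched RefSeq by Entrez number.

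Each gene was read from whichever of its probe sets averaged highest across the 4 arrays. Values under an array's floor, the median of its non-control probe sets, were set to it. A difference with 1 value under the floor is a bound, and none is given with both under it. A gene was called at 2-fold, and no test was run because each group has 1 array. The number of arrays limits the precision. Python 3.11.15 and pandas 2.3.3 were used, and the code was tested on simulated data. Alternatives covered the floor, the probe set, and the scaling.

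Members and lists were chosen with earlier results of these data known. Named genes are the 8 members, up to 4 genes per list and comparison with the largest absolute difference, and the 5 genes most like the member with the widest range. Promoters were in the table for 6 of the 8 genes.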

Additional observations from a re-analysis of the deposited data

Results flagged for a closer look

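Cryab was singled out because its KO minus F/F difference had opposite signs in the tissues, above 1 in teratomas and below -1 in embryoid bodies, by both measured probe sets. The difference in teratomas minus that in embryoid bodies was 3.08 log2 units by 1416455_a_at and 3.35 by 1434369_a_at. With 1 array per group this difference was not tested.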

How the results depend on the processing

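With 1 array per group there is no replicate check, and a shift was judged against the pooled SD between probe sets of the same gene. Of 242 differences of single members recomputed under 8 alternatives, 230 stayed within that spread, 12 moved by more and 0 of those past 2-fold changed sign. A lower floor or none could not move them, since the probe sets used lay above the floor on all 4 arrays. Each of these settings supplied 32 of the 230, and the floor at the 65th percentile 30. The 12 came from settings that change the probe sets: 6 with their mean, 3 without _x_at and _s_at, and 3 without _a_at as well. Below 2-fold, Hspa8 in teratomas was -0.25 without the _x_at, _s_at and _a_at probe sets, against 0.41, and Hspa1b in embryoid bodies was 0.35 there and 0.11 with the mean of probe sets, against -0.20. Hspa8 in embryoid bodies was -0.76 without _x_at and _s_at probe sets and -0.14 with the mean of probe sets, against 0.10, and Dnajb1 there was 0.09 with the mean of probe sets, against -0.15. The 4 members 2-fold higher in the KO teratoma numbered 3 after quantile normalization (Hspb1 at 0.90) or with the mean of probe sets (Cryab at 0.85, and -1.17 in embryoid bodies against -1.98), and 5 without _x_at and _s_at probe sets (Hspa8 at 1.23 against 0.41). They numbered 2 of 5 measured without the _x_at, _s_at and _a_at probe sets, which leave no measured probe set for Hspb1, Hsph1 and Cryab. Under that setting 0 members were 2-fold lower in KO embryoid bodies or in the F/F teratoma against F/F embryoid bodies, and the median of teratoma against embryoid body in KO was 1.64. The 4 members higher in the KO teratoma against KO embryoid bodies numbered 3 after centring (Hspb1 at 0.84). Members 2-fold higher in the F/F teratoma against F/F embryoid bodies numbered 1 after quantile normalization, and those lower numbered 2 without _x_at and _s_at probe sets, an alternative chosen after seeing the data. For all genes, a floor at the 65th percentile gave 169 higher and 310 lower in KO embryoid bodies, against 268 and 489, and 262 higher and 76 lower in the KO teratoma, against 397 and 131. The last count was 86 with the mean of probe sets and 206 after quantile normalization, which took the share of higher calls to 64.5% against 75.2%. Centring gave 4100 genes lower in the F/F teratoma than in F/F embryoid bodies, against 2456, and took the share of higher calls to 27.2% against 46.1% there and to 35% against 50% in KO. Fewer genes were measured at the 65th percentile floor, and fewer members without the _x_at, _s_at and _a_at probe sets. The cause of the other changes was not tested. No paired analysis was possible because each group has 1 array.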
